A study of Mus musculus with 4 samples.

Results

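Broad shared RUVBL2 regions are the stretches of the genome where the peaks of both RUVBL2 chromatin immunoprecipitation (ChIP) libraries overlapped and together spanned at least 1200 bp. Peaks of the 2 deposited lists that overlapped by at least 1 bp were joined, and the joined interval is called a shared region. Of 3111 shared regions, 304 (9.77%) were broad by this rule, and the other 2807 are called narrower. The width of the joined interval chose the members, so widths, numbers of joined peaks, summit positions and peak strength at these regions are given as descriptions with no test.

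The material was the hypothalamus of wild-type (WT) male C57BL/J mice aged 8 weeks, the brain region that holds the appetite-controlling paraventricular and arcuate neurons. Tissue was fixed in 1% formaldehyde for 10 min, fixation was stopped with 125 mM glycine, and chromatin was pulled down with an ABclonal antibody against RUVBL2. The series has 2 RUVBL2 ChIP libraries and 2 Input libraries of the same genotype, and the Input libraries were not used here by themselves. The labels do not say whether replicates 1 and 2 came from separate animals or pools, so the spread between them may be technical. Because the tissue was taken whole, a site bound in fewer cells and a site bound more weakly in each cell cannot be told apart.

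RUVBL2 (Reptin) and its partner RUVBL1 (Pontin) are AAA+ ATPases that assemble into hexameric rings. The rings are subunits of the INO80, SRCAP and TIP60 complexes, which slide nucleosomes, exchange histone H2A.Z and acetylate histones around gene starts, and of the R2TP co-chaperone, which helps to assemble RNA polymerases and other large complexes.

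The 5 promoter stretches below are shown because their starts lie inside broad regions that were among the widest or the strongest of the set and because they range from modest to high GC content. Each runs over the 250 bases before a RefSeq start (GRCm38.p6), 5′ to 3′ along the gene. Capitals mark matches, on either strand, to the motifs that were searched. The Hnrnpa2b1 stretch is chr6:51469895-51470144 on the minus strand, and the Cbx3 stretch is chr6:51470366-51470615 on the plus strand. Both lie inside 1 broad region that holds the starts of these divergent genes. The Sp3 stretch is chr2:72980447-72980696 on the minus strand, the Pcbp1 stretch is chr6:86526190-86526439 on the minus strand, and the Zc3h4 stretch is chr7:16400946-16401195 on the plus strand.
Hnrnpa2b1: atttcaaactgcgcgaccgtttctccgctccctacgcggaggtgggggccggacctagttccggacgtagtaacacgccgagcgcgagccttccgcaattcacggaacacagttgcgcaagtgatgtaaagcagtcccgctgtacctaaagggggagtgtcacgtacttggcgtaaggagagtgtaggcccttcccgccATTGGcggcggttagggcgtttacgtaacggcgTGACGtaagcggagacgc
Cbx3: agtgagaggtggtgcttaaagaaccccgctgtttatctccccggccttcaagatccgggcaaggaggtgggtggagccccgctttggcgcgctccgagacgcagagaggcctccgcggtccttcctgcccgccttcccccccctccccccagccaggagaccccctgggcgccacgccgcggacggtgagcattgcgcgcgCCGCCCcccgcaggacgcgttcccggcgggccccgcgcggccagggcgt
Sp3: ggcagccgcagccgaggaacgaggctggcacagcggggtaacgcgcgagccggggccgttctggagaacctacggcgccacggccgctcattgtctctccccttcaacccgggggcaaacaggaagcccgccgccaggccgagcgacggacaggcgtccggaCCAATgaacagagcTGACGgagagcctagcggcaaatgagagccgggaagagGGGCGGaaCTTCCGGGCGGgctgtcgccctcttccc
Pcbp1: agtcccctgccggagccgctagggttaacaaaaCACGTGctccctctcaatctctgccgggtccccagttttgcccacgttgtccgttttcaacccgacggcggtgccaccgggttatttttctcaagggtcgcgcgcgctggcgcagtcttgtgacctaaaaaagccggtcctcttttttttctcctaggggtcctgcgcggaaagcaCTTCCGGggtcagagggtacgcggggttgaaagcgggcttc
Zc3h4: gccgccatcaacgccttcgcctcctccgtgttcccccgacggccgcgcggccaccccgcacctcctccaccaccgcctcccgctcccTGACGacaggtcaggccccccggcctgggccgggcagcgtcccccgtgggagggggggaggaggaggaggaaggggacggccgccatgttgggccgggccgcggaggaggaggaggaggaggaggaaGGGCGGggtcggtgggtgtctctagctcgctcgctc
In the Hnrnpa2b1 stretch the capitals mark a CCAAT box and a cAMP response element (CRE) half-site, and in the Cbx3 stretch they mark a GC box. The Sp3 stretch holds 5 matches, with a GC box occurring more than once beside a CCAAT box, a CRE half-site and an ETS half-site. In the Pcbp1 stretch the capitals mark an E-box and an ETS half-site, and in the Zc3h4 stretch a CRE half-site and a GC box. Hnrnpa2b1 and Pcbp1 encode RNA-binding proteins of pre-mRNA processing, Cbx3 encodes the heterochromatin protein HP1γ, Sp3 encodes a transcription factor that binds GC boxes, and Zc3h4 encodes a zinc-finger protein that limits non-coding transcription.

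The joined width of the broad regions had a median of 1404 bp (95% interval of the median 1378 to 1431), against 682 bp (669 to 693) for the narrower regions. Widths ran on from one group to the other without a gap. The narrowest broad regions were those at Wtap, a subunit of the RNA methyltransferase complex, at Hsp90aa1, a chaperone gene, and at Dusp8, a phosphatase gene, each of 1200 bp. The widest narrower regions lay at Hira and Mrpl40 with 1199 bp, at Rhob with 1198 bp and at Zfr with 1198 bp. The fold enrichment over background, as the authors' peak caller gave it, was 11.6 at Wtap, 4.54 at Hsp90aa1 and 4.62 at Dusp8 in replicate 1, and 11.1, 8.29 and 4.82 in replicate 2. In the 3 regions just outside it was 3.74 to 4.20 in replicate 1 and 4.02 to 6.52 in replicate 2, a range that Dusp8 shares in replicate 2.

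**Figure D1:**
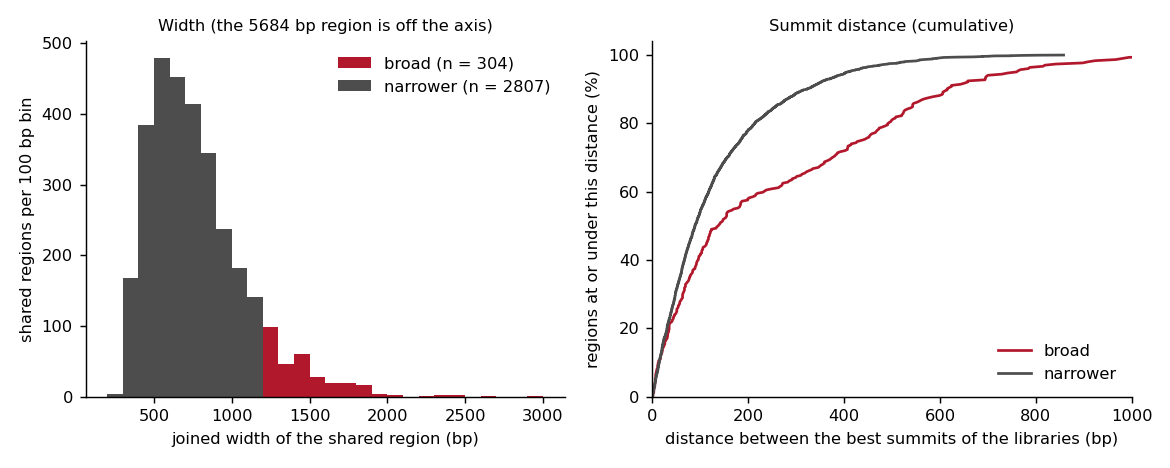
Left, joined width of the shared regions in bp against the number of regions per 100 bp bin, with broad regions in red and narrower regions in grey. Right, the share of regions in percent whose strongest summits in the 2 libraries lie within the distance on the x axis in bp. Widths form 1 continuous distribution, and by 250 bp the curve has reached 60.9% of the broad regions and 84.2% of the narrower ones.

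Most broad regions were not chains of several called peaks. Of the 304, 255 (83.9%) were joined from the smallest possible number, 1 peak of each library, against 2796 of 2807 (99.6%) narrower regions. The stretch covered in both lists made up a median of 54.2% of the joined width at broad and 59.6% at narrower regions. A region of 1 peak per library is thus not always 1 stretch wide in both. More than 2 peaks were joined in 49 broad regions (16.1%, exact 95% interval 12.2 to 20.7) and in 11 narrower regions (0.392%, 0.196 to 0.700). Among the 49, 45 held 3 peaks and 4 held 4 peaks, and the narrower regions held at most 3. A longer joined interval has more room for several peaks, so this contrast follows in part from the rule.

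Where a broad region held several peaks of 1 library, that library was usually replicate 1. Replicate 1 contributed at least 2 peaks in 39 broad regions, replicate 2 did so in 12, and both did so in 2. In the narrower regions these numbers were 7, 4 and 0. The 53 neighbouring pairs of peaks of the same library inside broad regions were separated by gaps of 239 to 902 bp with a median of 334 bp, and their summits lay a median of 823 bp apart. The 11 such pairs in narrower regions had gaps of 243 to 421 bp with a median of 293 bp and a median summit spacing of 662 bp. No gap of either kind was shorter than 239 bp.

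The 2 broad regions that were split in both libraries lay at Sp3 and at Gtf2a1, which encodes the large subunit of the general transcription factor TFIIA. At Sp3 (chr2:72978713-72981048, 2336 bp), replicate 1 had summits 200 bp upstream and 1597 bp downstream of the most upstream listed start in the region, and replicate 2 had them 279 bp upstream and 1212 bp downstream. The downstream summit had the higher fold in both libraries, 6.47 in replicate 1 and 7.52 in replicate 2, although in replicate 2 its pileup was 33 reads, against 40 reads at the upstream summit. Gtf2a1 (chr12:91588374-91590672, 2299 bp) had summits 696 and 1966 bp downstream of its start in replicate 1 and 673 and 1631 bp downstream in replicate 2. Between the libraries, the upstream summits were 79 bp apart at Sp3 and 23 bp apart at Gtf2a1, and the downstream summits 385 and 335 bp apart.

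**Figure D2:**
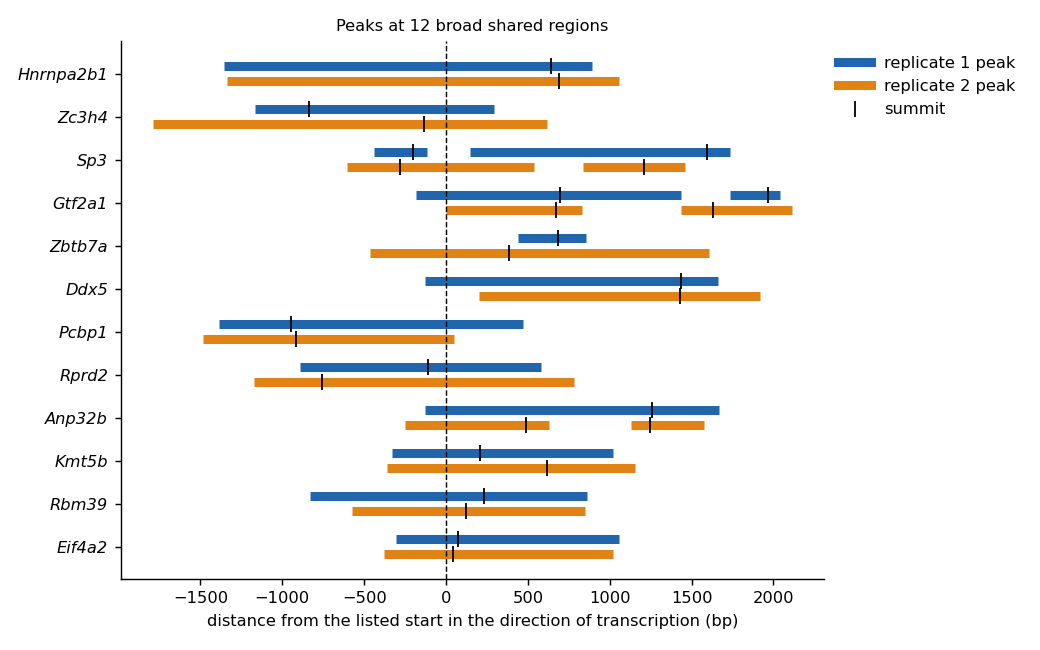
Peaks of replicate 1 (blue) and replicate 2 (orange) at 12 broad regions, drawn as distance in bp from the most upstream listed start in the region along the direction of transcription; vertical ticks are summits. Summits coincide within 51 bp at Hnrnpa2b1, Ddx5, Pcbp1 and Eif4a2, while at Zbtb7a a replicate 1 peak of 415 bp lies inside a replicate 2 peak of 2074 bp.

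The strongest summits of the 2 libraries were a median of 138 bp apart at broad regions (113 to 182) and 89 bp apart at narrower regions (85 to 94). At the closest range the shares were near each other, with summits within 10 bp at 25 broad regions (8.22%) and 206 narrower regions (7.34%). At longer range they were not, with summits within 100 bp at 41.8% of broad (36.2 to 47.5) and 54.6% of narrower regions (52.7 to 56.5), and within 500 bp at 80.9% and 97.5%. Of the distances read, 250 bp gave the widest gap, with 60.9% of broad and 84.2% of narrower regions. Measured against the width of the region the order was the other way, with a median summit distance of 9.64% of the joined width at broad regions and 13.7% at narrower ones. Broad regions joined from only 2 peaks had a median summit distance of 142 bp, and those joined from more had 115 bp.

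Breadth was called in 1 library far more often than in both. The widest single peak reached 1200 bp in replicate 2 at 236 broad regions (77.6%), in replicate 1 at 53 (17.4%), in both at 34 (11.2%) and in neither at 49 (16.1%). In those 49, only the joining of peaks took the interval past the limit. Replicate 2 had the longer list, with 6403 peaks of median width 521 bp, against 3943 peaks of median width 415 bp in replicate 1. Its peaks reached 1200 bp in 4.15% of cases, against 1.34% in replicate 1, and its median pileup at the summit was 22 reads, against 16 in replicate 1. Counted in each library alone, shared or not, 53 peaks of replicate 1 and 266 of replicate 2 reached the same width limit. The number of broad regions is thus set mainly by replicate 2.

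The width in one library can be read at regions chosen by the width in the other. The reading is not independent of the choice, since a wide peak can overlap several peaks of the other library, of which the widest is taken. At the 236 shared regions with a replicate 2 peak of at least 1200 bp, the widest replicate 1 peak had a median of 711.5 bp, against 435 bp at the other 2875 shared regions. Of these 236, 34 (14.4%, 10.2 to 19.5) also reached 1200 bp in replicate 1, against 19 of 2875 (0.661%, 0.398 to 1.03). In the other direction, the 53 regions with a replicate 1 peak of at least 1200 bp had a median replicate 2 width of 1421 bp, against 626 bp at the other 3058, and 34 of the 53 (64.2%, 49.8 to 76.9) reached 1200 bp in replicate 2, against 202 of 3058 (6.61%, 5.75 to 7.54). By these medians, regions wide in one library were wider than other shared regions in the other library as well. They were also stronger there, with a median fold of 5.86 against 4.93 in replicate 1 and 7.92 against 5.31 in replicate 2. The part of peak strength and of joined peaks in these widths was not tested. Across all 3111 shared regions the Spearman correlation of the widest peaks was 0.40, and that of replicate 1 width with replicate 2 fold was 0.29. The points share the same 2 libraries, so these are descriptions only.

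**Figure D3:**
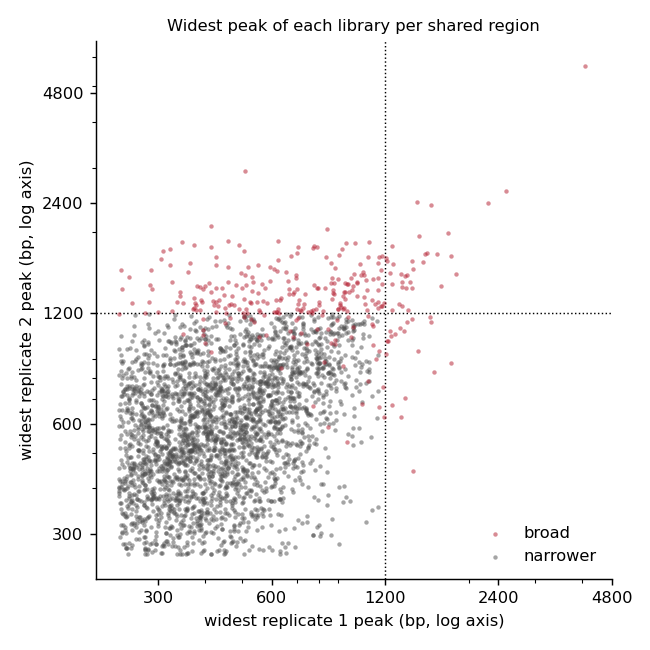
Widest peak of replicate 1 against widest peak of replicate 2 at each of 3111 shared regions, in bp on log axes, with broad regions in red, narrower regions in grey and dotted lines at 1200 bp. Of the broad regions, 202 lie above the line for replicate 2 alone, 19 beyond the line for replicate 1 alone and 34 beyond both.

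Broad regions were on the whole stronger than narrower ones in each library. The fold enrichment at the best peak had a median of 5.86 (95% interval of the median 5.55 to 6.08) at broad regions and 4.93 (4.93 to 5.02) at narrower regions in replicate 1. In replicate 2 the medians were 6.74 (6.42 to 7.08) and 5.21 (5.17 to 5.31). The summit pileup had a median of 19 reads at broad and 16 reads at narrower regions in replicate 1, and of 30 and 25 reads in replicate 2, while the median background was 2.25 reads for both kinds in replicate 1 and 3.56 against 3.84 reads in replicate 2. The ranges overlap widely, with 3.03 to 15.7-fold at broad and 2.90 to 19.0-fold at narrower regions in replicate 1. Among the 1000 peaks with the smallest p of each list, both libraries placed 116 broad regions (38.2%) and 418 narrower ones (14.9%).

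Regions were ranked by p within each list and then by the worse of their 2 ranks. The best-ranked broad region at a protein-coding gene end lay at Kmt2e (chr5:23432684-23434666, 1983 bp), a gene of the KMT2 family of histone methyltransferase-related proteins. Its fold was 13.4 in replicate 1 (exact Poisson 95% interval 10.3 to 17.0, counting error only) and 34.5 in replicate 2 (29.4 to 40.2), and the summits lay 12 bp apart. No Kmt2e start was listed inside this region, which held a start of the lncRNA gene 5031425E22Rik. Pcbp1 (chr6:86525720-86527676, 1957 bp) had 9.84-fold in replicate 1 (7.36 to 12.9) and 21.6-fold in replicate 2 (17.3 to 26.6). At these 2 genes replicate 2 was well above replicate 1, beyond the counting intervals of both.

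The Zc3h4 region (chr7:16399404-16401812, 2409 bp) had 15.1-fold in replicate 1 and 16.0-fold in replicate 2, with the summits 837 and 137 bp upstream of the start. At Rbm39 (chr2:156179377-156181071, 1695 bp), which encodes a splicing coactivator, the fold was 15.7 in replicate 1 and 11.6 in replicate 2. Both libraries thus placed these regions high, and the counting intervals of the libraries overlapped at each. Kmt5b, a histone H4 lysine 20 methyltransferase gene, had 12.9-fold in replicate 1 and 18.3-fold in replicate 2. Epc1, which encodes a scaffold subunit of the TIP60 complex that RUVBL2 itself belongs to, held a broad region of 1428 bp in its interior, 25491 bp from the nearest gene end, with 14.2-fold in replicate 1 and 23.9-fold in replicate 2. Epc1 lies on chromosome 18, for which no starts were listed, so an internal start in this region could not be seen.

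The widest region of all was of another kind. It spanned 5684 bp (chr17:39843129-39848812) over Rn18s-rs5, a pseudogene related to 18S ribosomal RNA, and was joined from 3 peaks of replicate 1 and 1 of replicate 2. Its background was 105 reads in replicate 1 and 127 reads in replicate 2, against medians of 2.25 and 3.56 reads over all broad regions. The fold was 3.03 in replicate 1, the lowest of the 304 regions in that library, and 6.76 in replicate 2. Ribosomal RNA genes are present in many copies of which a genome assembly holds few, and the part of read mapping in this region was not tested. The second widest region (2938 bp) lay near Gm20783 on chromosome 9 and also joined 3 peaks of replicate 1 and 1 of replicate 2, with the best summits 2366 bp apart. The next in width lay at Brd2 and H2-DMa (chr17:34119000-34121627, 2628 bp), where the background was 2.89 reads in replicate 1 and 3.03 reads in replicate 2. It had 8.47-fold in replicate 1 and 12.4-fold in replicate 2, and its summits were 3 bp apart. It was followed by the region over the starts of Hnrnpa2b1 and Cbx3 (chr6:51468835-51471252, 2418 bp), with 9.84-fold and 11.3-fold in replicates 1 and 2. Its summits were 51 bp apart and lay 639 and 690 bp downstream of the Hnrnpa2b1 start in replicates 1 and 2. Brd2 encodes a bromodomain protein that reads acetylated histones, and H2-DMa encodes a subunit of the class II peptide-loading molecule.

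Broad regions lay mainly at the ends of protein-coding genes, like the narrower ones. The midpoint was within 3 kb of a gene end at 259 of 304 broad regions (85.2%, 80.7 to 89.0) and at 2525 of 2807 narrower regions (90.0%, 88.8 to 91.0). Gene interiors held 30 broad regions (9.87%) and 215 narrower ones (7.66%), and 14 broad regions (4.61%) and 67 narrower ones (2.39%) lay outside protein-coding genes. One more broad region lay on an unplaced scaffold. Ends of at least 2 genes were within 3 kb of 73 broad regions (24.0%) and of 673 narrower regions (24.0%). Genes next to broad regions had a median length of 23578 bp (19209 to 28853), against 23800 bp (22438 to 24939) next to narrower regions.

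A listed start of a protein-coding gene lay inside 226 of the 292 broad regions on chromosomes with listed starts (77.4%, 72.2 to 82.1) and inside 1858 of 2719 narrower regions (68.3%, 66.5 to 70.1). Starts of at least 2 protein-coding genes lay inside 47 broad regions (16.1%, 12.1 to 20.8) and 194 narrower ones (7.13%, 6.20 to 8.17). These starts lay on opposite strands in all 47 of the broad regions and in 190 of the 194 narrower ones. A wider interval covers more starts by its size alone, and the part of size in these shares was not tested. Examples are the divergent pairs Hnrnpa2b1 with Cbx3 and Cep95 with Ddx5, an RNA helicase gene. The Ddx5 region (chr11:106787269-106789313, 2045 bp) had 9.96-fold in replicate 1 and 12.8-fold in replicate 2, and its summits were 5 bp apart.

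Around a single listed start, a smaller share of broad than of narrower regions reached further downstream than upstream. A region entered this comparison if it held a listed protein-coding start and no other listed start, lncRNA starts included, lay within 3 kb of its midpoint. Of the 118 broad regions of this kind, 75 (63.6%, 54.2 to 72.2) reached further downstream than upstream, against 825 of 1114 narrower regions (74.1%, 71.4 to 76.6). The intervals of these shares overlap. The median reach at broad regions was 611.5 bp upstream and 777.5 bp downstream, and at narrower regions 240 bp upstream and 433.5 bp downstream. Summits of replicate 2 lay downstream of the start at 55.1% of broad (45.7 to 64.3) and 73.7% of narrower regions (71.0 to 76.3). In replicate 1 these shares were 59.3% (49.9 to 68.3) and 73.4% (70.7 to 76.0). The median summit position was 96.5 bp downstream of the start at broad (16.0 to 182) and 99 bp downstream at narrower regions (89.0 to 114) in replicate 1, which is nearly the same, and 58.5 bp and 101 bp downstream in replicate 2. At broad regions of at least 1500 bp, the share that reached further downstream was 52.9% (18 of 34). The reach is that of the joined interval, whose width chose the members.

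**Figure D4:**
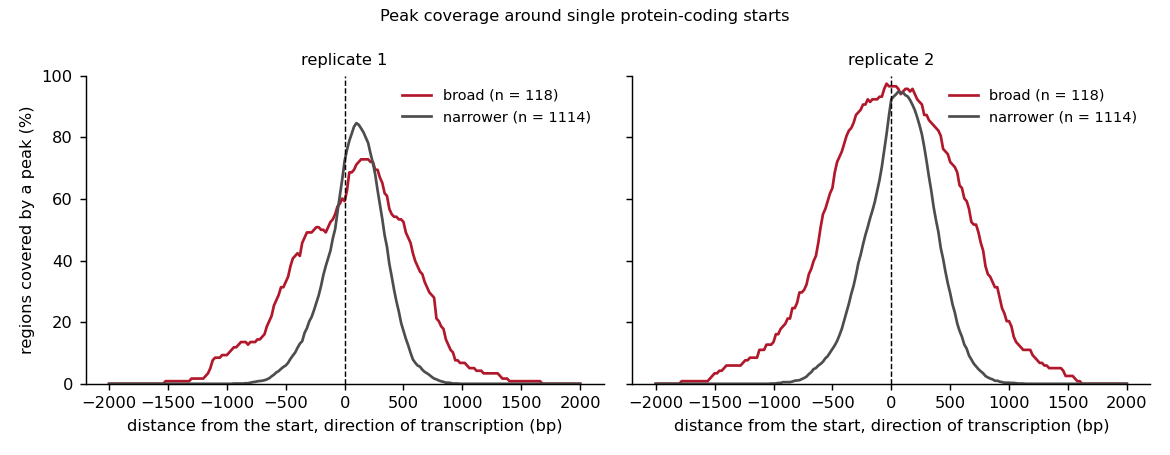
Share of regions in percent covered by a peak at each distance in bp from a protein-coding start with no other listed start within 3 kb of the midpoint, along the direction of transcription, for broad (red, n = 118) and narrower regions (grey, n = 1114) in replicate 1 (left) and replicate 2 (right). At 500 bp upstream, replicate 2 peaks covered 63.6% of broad and 11.3% of narrower regions, and at 500 bp downstream 72.0% and 29.4%.

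The profile in replicate 1 was lower at the start itself for broad regions. Replicate 1 peaks covered the start in 59.3% of broad regions and 72.4% of narrower ones, whereas replicate 2 peaks covered it in 96.6% and 92.4%. At 500 bp upstream, replicate 1 peaks covered 33.1% of broad and 5.92% of narrower regions. Zbtb7a, a zinc-finger repressor gene, is a case in point, with a replicate 1 peak from 441 to 855 bp downstream of the start and a replicate 2 peak from 467 bp upstream to 1606 bp downstream. The Zc3h4 region reached further upstream, 1792 bp against 616 bp downstream. Pcbp1 was not among the 118, since its region also holds the start of the lncRNA gene 1600020E01Rik; its summits lay 948 bp upstream of the Pcbp1 start in replicate 1 and 919 bp upstream in replicate 2.

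The sequence at the start was not used by the rule. Promoters of 273 genes had their start inside a broad region and 2047 had it inside a narrower one; they are set beside 17492 protein-coding genes with a listed promoter, each over the 300 bases from 250 before to 50 after the start. The GC content had a median of 68.0% at broad (67.0 to 69.3), 64.3% at narrower (64.0 to 65.0) and 56.3% over all promoters. CpG dinucleotides occurred at 0.933 (0.913 to 0.952) of the number that base composition predicts at broad, 0.884 (0.876 to 0.891) at narrower and 0.576 over all promoters. Both medians were thus higher at broad than at narrower regions. A listed protein-coding start lay in 226 broad and 1858 narrower regions, so some regions entered with promoters of more than 1 gene. Starts of at least 2 genes lay in 16.1% of broad and 7.13% of narrower regions. The intervals count each promoter separately, and the part of such pairs in the GC and CpG contrast was not tested. Single promoters varied, and of the 5 printed above Cbx3 had 75.3% GC over its 300 bases, Zc3h4 74.0%, Sp3 66.7%, Pcbp1 63.7% and Hnrnpa2b1 60%. Pcbp1 and Hnrnpa2b1 were below the median of narrower regions.

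Motifs were searched as exact letters on both strands in the same 300 bases. The GC box GGGCGG was present in 214 promoters at broad regions (78.4%, 73.0 to 83.1), in 72.8% at narrower regions (70.9 to 74.8) and in 46.3% of all promoters. The element TCTCGCG, which the BANP protein binds, was present in 34 (12.5%, 8.78 to 17.0), in 8.84% (7.65 to 10.2) and in 3.64%. The ETS half-site CCGGAAG was present in 56 (20.5%, 15.9 to 25.8), in 26.0% (24.1 to 27.9) and in 11.9%. Only for the GC and CpG content did the intervals of broad and narrower regions lie apart, and for each of the motifs searched they overlapped.

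For the other motifs the promoters at shared regions of both kinds stood on the same side of all promoters. The CRE half-site TGACG was present in 43.6% at broad, 40.4% at narrower and 23.8% of all promoters, and the full CRE TGACGTCA in 4.40%, 4.45% and 2.34%. The NRF1 half-site GCGCATGC was present in 6.59%, 6.84% and 3.61%, the YY1 core AAGATGG in 10.3%, 13.5% and 6.37%, and the E-box CACGTG in 9.52%, 10.8% and 7.90%. The CCAAT box was rarer than over all promoters, in 30.0%, 31.6% and 39.0%, and so was TATAAA, in 4.40%, 3.81% and 13.3%. At broad regions the intervals of the E-box (6.32 to 13.6) and of the full CRE (2.29 to 7.55) include the share of all promoters. Every full CRE also counts as a CRE half-site. A match describes letters in a window and not a bound factor.

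By gene, 334 protein-coding genes had the midpoint of a broad region within 3 kb of either end, which is 1.53% of 21779 such genes and 9.59% of the 3483 genes with any shared region there. The second share is the one against which the gene lists below are read, since a gene first needs a shared region before that region can be broad. The lists were chosen with earlier results of these data known, so their shares carry intervals and no test. Among the lists with at least 10 such genes, those of RNA processing, histone methylation and protein folding had the largest shares.

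Heterogeneous nuclear ribonucleoproteins (hnRNPs) and other RNA-binding proteins, which coat and process nascent transcripts, had a broad region at 12 of 33 genes with a shared region (36.4%, 20.4 to 54.9) and at 12 of 53 genes listed. They were Hnrnpa2b1, Pcbp1, Ewsr1, Ptbp1, Hnrnpu, Hnrnpk, Hnrnph1, Syncrip, Hnrnpa0, Hnrnpul2, Hnrnpa3 and Hnrnph3, and a listed start lay inside the region at 11 of them. Ewsr1, a FET-family RNA-binding protein gene, had 4.76-fold in replicate 1 and 6.46-fold in replicate 2 over 1808 bp. Ptbp1, a splicing repressor gene, had 4.73-fold and 7.17-fold in replicates 1 and 2 over 1794 bp. Apart from Hnrnpa2b1 and Pcbp1, the widths of the members of this list ran from 1280 to 1808 bp and the folds from 3.998 to 9.53 in replicate 1 and from 5.88 to 10.9 in replicate 2.

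Histone lysine methylation enzymes and their relatives had a broad region at 10 of 28 genes with a shared region (35.7%, 18.6 to 55.9). A listed start of the gene lay inside the region at 5 of the 10. Besides Kmt2e and Kmt5b these were Setd7, Kmt2d, Nsd1, Setd2, Kmt2b, Setd5, Dot1l and Setd1a. Kmt2d, a histone H3 lysine 4 methyltransferase gene, had 9.84-fold in replicate 1 and 12.9-fold in replicate 2 over 1586 bp, with the summits 63 bp apart. Setd7, a lysine methyltransferase gene, had 4.76-fold and 5.21-fold in replicates 1 and 2 over 1825 bp, with the summits 967 bp apart. The list thus spans sharp and loose pairs of summits. The enzymes methylate different residues: Kmt2b, Kmt2d and Setd1a act on H3 lysine 4, Setd2 and Nsd1 on H3 lysine 36, Dot1l on H3 lysine 79 and Kmt5b on H4 lysine 20.

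Chaperone genes had 8 of 31 (25.8%, 11.9 to 44.6), namely Hsp90ab1, Dnajb4, Hspa9, Hspa4, Dnaja1, Hspd1, Hspe1 and Hsp90aa1, which include both cytosolic HSP90 genes. Hspd1 and Hspe1, the mitochondrial chaperonin and its co-chaperonin, share 1 divergent promoter and 1 region, so the 8 genes stand for 7 regions. A listed start of the gene lay inside the region at 5 of the 8, and Hspa9 lies on chromosome 18, where no starts were listed. Hsp90ab1 had 4.70-fold in replicate 1 and 8.60-fold in replicate 2 over 1898 bp. Dnajb4, which encodes an HSP40 co-chaperone, had 8.67-fold and 8.29-fold in replicates 1 and 2 over 1455 bp. None of the 8 genes had a region of 1200 bp in replicate 1 alone, so this count depends on replicate 2.

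Splicing genes had 10 of 41 (24.4%, 12.4 to 40.3), from the kinase gene Clk3 and the polypyrimidine-tract factor gene U2af2 to Son, Rbm39, Srsf2, Ddx39b, Srsf1, Sf3a2, Ppig and Srrm1. Clk3 had 7.71-fold in replicate 1 and 7.46-fold in replicate 2 over 1821 bp, and Son, a nuclear speckle scaffold gene, had 9.97-fold and 10.6-fold in replicates 1 and 2 over 1702 bp. In both, the libraries gave nearly the same fold. A listed start of the gene lay inside the region at 9 of the 10 splicing genes. Sf3a2 and Dot1l, of the methylation list, lie at the same region. DEAD-box and DEAH-box helicase genes had 6 of 24 (25%, 9.77 to 46.7), with Ddx5, Ddx6, Eif4a2, Ddx17, Ddx39b and Ddx42, and a listed start inside the region at 5 of the 6. Eif4a2, a translation initiation helicase gene (chr16:23107088-23108524, 1437 bp), had 10.3-fold in replicate 1 and 16.3-fold in replicate 2 with summits 31 bp apart. Eif4a2 and Ddx39b are each in 2 lists.

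**Figure D5:**
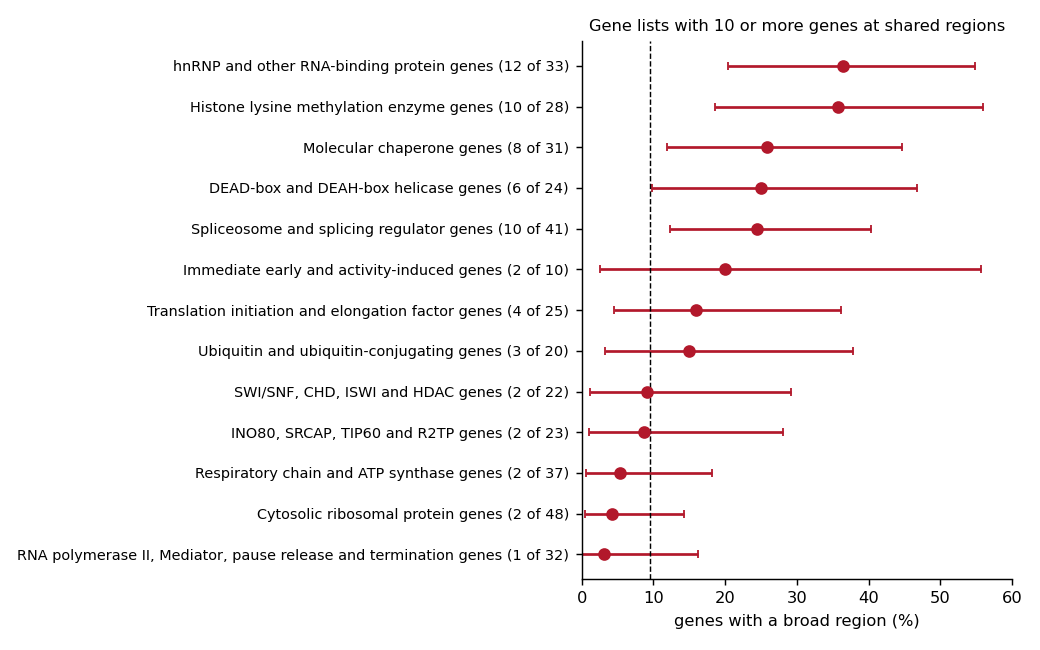
Percent of genes whose shared region, within 3 kb of either end, is broad, for 13 lists with at least 10 such genes; points are shares, bars exact 95% intervals, the numbers in parentheses the counts, and the dashed line the 9.59% over all genes with a shared region. The 5 lists at the top lie between 24.4% and 36.4%, while ribosomal protein, respiratory chain and RNA polymerase II genes lie between 3.13% and 5.41%.

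The shares of 3 other lists of housekeeping genes lay below the 9.59% over all genes. Cytosolic ribosomal protein genes had a broad region at 2 of 48 genes (4.17%, 0.509 to 14.3), which were Rpl24 and Rps18. Respiratory chain and ATP synthase genes had 2 of 37 (5.41%, 0.661 to 18.2), Atp5j and Ndufb5. RNA polymerase II, Mediator and pause-release genes had 1 of 32 (3.13%, 0.0791 to 16.2), the catalytic subunit gene Polr2a. Their intervals all include the share over all genes. Above that share, translation factor genes had 4 of 25 (16.0%, 4.54 to 36.1) with Eif4g2, Eif5, Eif4a2 and Eif5b, and ubiquitin genes had 3 of 20 (15.0%, 3.21 to 37.9) with Ube2d3, Ube2q1 and Sumo2, with intervals that also include it.

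Genes of the complexes that hold RUVBL1 and RUVBL2 had a broad region within 3 kb of a gene end at 2 of 23 (8.70%, 1.07 to 28.0), Mbtd1 and Epc2, both subunits of the TIP60 complex. The interior region of Epc1 described above is not in this count. Epc2 had 10.6-fold in replicate 1 and 12.1-fold in replicate 2 over 1304 bp, with the summits 3 bp apart, while the Mbtd1 region, with 4.32-fold and 5.07-fold, also held 2 peaks of replicate 1. SWI/SNF, CHD, ISWI and HDAC genes had 2 of 22 (9.09%, 1.12 to 29.2), the ISWI ATPase gene Smarca5 and the BAF subunit gene Arid1b. Both shares were close to that over all genes with a shared region.

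Neuronal and cell type lists differed in how many of their genes had any shared region, without which no broad one is possible. Over all protein-coding genes this count was 3483 of 21779. The share was larger among immediate early genes, with 10 of 47, and similar among presynaptic release genes, with 6 of 40. It was smaller among glutamatergic postsynaptic genes, with 4 of 40, and among appetite and hypothalamic peptide genes, with 2 of 42. These counts are small and carry no interval, so they do not set any of these lists apart from all genes. Immediate early genes had a broad region at 2 of 10 genes with a shared region (20%, 2.52 to 55.6) and at 2 of 47 listed (4.26%), Jund and Crem, and the fold of Jund was 6.82 in replicate 1 and 2.83 in replicate 2. Presynaptic release genes had 1 of 6 with a shared region and 1 of 40 listed (2.50%), the vesicle SNARE gene Vamp2, and glutamatergic postsynaptic genes had 0 of 4 with a shared region. Of 42 appetite and hypothalamic peptide genes, 2 had a shared region and 1 of these (2.38% of the 42) a broad one, namely Ntrk2, which encodes the receptor of brain-derived neurotrophic factor. Set beside the 1.53% of all protein-coding genes, these shares of listed genes are not low, and they rest on 1 or 2 genes each. Its region (chr13:58806499-58808122, 1624 bp) had 4.51-fold in replicate 1 and 6.86-fold in replicate 2, with the summits 81 bp apart. Of 14 astrocyte, 18 oligodendrocyte, 14 microglia and 14 endothelial and mural markers, 0 had a shared region of any width, and of 13 ependymal and tanycyte markers 1 had a narrower one. No broad region was therefore possible at the first 4 lists. Each of them is short, and a count of 0 allows 16.7% of the oligodendrocyte markers and 21.4% of each of the others. These markers identify cells by their RNA, and a missing peak says nothing of whether the gene is expressed.

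The counts per list rest largely on replicate 2. With the width limit applied to replicate 1 peaks alone, hnRNP and other RNA-binding genes had 6, splicing genes 4, histone methylation enzymes 3, DEAD-box and DEAH-box helicases 2 and chaperones 0. With replicate 2 peaks alone, every one of these 5 lists stayed within 1.5 times its count.

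Of the 45 broad regions not at a protein-coding gene end, 42 lay on chromosomes with listed starts. Among these 42, 22 (52.4%, 36.4 to 68.0) held a listed protein-coding start, 8 held a start of a lncRNA gene and no protein-coding one, and 12 held neither. Among the 273 narrower regions of this kind these numbers were 114 (41.8%, 35.8 to 47.9), 24 and 135. A listed start of either kind thus lay in 30 of 42 broad regions and in 138 of 273 narrower ones. Internal starts lay in the regions at Stag1, a cohesin subunit gene (2036 bp, 5.65-fold in replicate 1 and 4.96-fold in replicate 2), at the transcription factor gene Gtf2i (1713 bp, 5.55-fold and 4.33-fold in replicates 1 and 2), at the deubiquitinase gene Usp34 (1709 bp) and at the proteasome adaptor gene Ecpas (1708 bp).

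The widest interior region with no listed start lay in Bicral, which encodes a subunit of a SWI/SNF complex (chr17:46856282-46858648, 2367 bp), 32977 bp from the nearest gene end. It had 8.63-fold in replicate 1 and 15.1-fold in replicate 2, so it was stronger than the median broad region in both libraries, and its summits were 909 bp apart. Others without a listed start were at Ywhaz, a 14-3-3 gene (1895 bp), and at Cpeb2, a translational regulator gene (1646 bp). Among lncRNA starts was that of Malat1, a nuclear RNA of splicing speckles (chr19:5802593-5804039, 1447 bp), with 8.06-fold in replicate 1 and 11.7-fold in replicate 2.

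On chromosome X lay 1 broad region, at Hcfc1, which encodes a co-regulator of histone-modifying enzymes, and 14 narrower ones. Its fold was 5.86 in replicate 1 and 9.88 in replicate 2. Among the autosomes the share of shared regions that were broad ran between 3.64% on chromosome 14 (4 of 110) and 15.6% on chromosome 1 (28 of 180). A background over 3 times the lowest of its list was found at 4 broad regions (1.32%) and 18 narrower ones (0.641%).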

How the data were processed

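ChIP-seq for RUVBL2 was done on hypothalamus of WT mice, with 15 cycles of amplification and paired reads of 150 bp, per the labels' protocols. MACS2 2.1.0, Bowtie2 2.3.4.1, Trimmomatic 0.33, bcl2fastq 2.17, ChIPseeker and the build GRCm38 are named, without settings, in the submitters' processing notes. Peaks were called per library. The deposited lists give, at each summit, the authors' fold ratio over background, −log10 p, −log10 q and a score that follows the −log10 q. The deposited summit lists repeat the summit positions. Peaks of replicate 2 carry the prefix Hyp3 under a title with Hyp2; its list was taken as GEO assigns it.

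Overlapping peaks were joined with Python 3.11.15, pandas 2.3.3, numpy 2.4.6 and scipy 1.17.1. Read totals were not used; summit pileup and background were solved from the fold and the −log10 p, and 100% of peaks matched a whole pileup within a relative tolerance of 0.0001. On 821 simulated peaks this recovered 100%, and joining of simulated lists returned all 400 regions made. Poisson intervals cover counting error only, since amplified reads are not independent molecules. Shares have exact Clopper-Pearson 95% intervals, medians binomial order-statistic intervals, and a count of 0 allows 3 counts of the total.

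Genes came from RefSeq GRCm38.p6, whose table has gene ends without strand, so a gene end is either end. Starts came from the RefSeq promoter table, which covers 17492 protein-coding genes and none on chromosome 18, so shares of regions with a start leave that chromosome out. Exons and UTRs were not assigned. Members and gene lists were chosen with earlier results of these data known. Named by rule were the 15 widest regions, the 10 with the best worst-case rank, those of 4 peaks, the 3 on either side of the limit, the 10 widest away from gene ends and the 4 widest per list; the others were chosen after their values were seen. One region named by this rule is not reported here. No tests were made, since the rule used the measured widths. The alternatives were other width limits, overlap and q thresholds, another gene window and each replicate alone.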

Additional observations from a re-analysis of the deposited data

How the results depend on the processing

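The number of broad regions was 627 with a limit of 1000 bp, 98 with 1500 bp and 33 when the stretch covered in both lists had to reach 1200 bp. With either replicate left out, 53 to 266 peaks of the other reached 1200 bp, shared or not. With a window of 1 kb, 74.0% lay at a gene end and 18.4% near ends of at least 2 genes; with either replicate left out these shares were 86.5% to 86.8% and 26.3% to 28.3%. Regions of more than 2 peaks made up 8.93% with a limit of 1000 bp and 7.96% with a −log10 q of at least 5 in both lists. With a limit of 1500 bp the median summit distance was 217 bp and the median folds were 6.21 in replicate 1 and 7.38 in replicate 2. With the stricter q the median folds were 6.46 and 7.17. The peaks of at least 1200 bp of each library alone, shared or not, had 7.12 in replicate 1 and 6.62 in replicate 2. The share that reached further downstream was 52.9% with a limit of 1500 bp and 60.6% to 68.4% with either replicate left out. The limit on width changes which regions are counted by its construction; the cause of the other shifts was not tested. Of the settings tried on these main values, 38 moved them by less than their interval or 1.5 times and 15 by more; among the counts per gene list these numbers were 119 and 49, and the settings for the list counts and the downstream share were chosen after seeing the data. No paired analysis was possible because the Input libraries gave no separate values and no result comes from a test. Depth limits single regions, which rest on a median of 19 reads in replicate 1 and 30 reads in replicate 2 at the summit.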

Other observations

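Families taken by their symbols, chosen after their values were seen, gave the following counts. They are set beside 9.59% of genes with any shared region and 1.53% of all protein-coding genes. Of 21 genes whose symbol begins with Hnrnp, 8 had a broad region (38.1%, 18.1 to 61.6) and 17 any shared region. The 8 were 47.1% of those 17. Of 41 Zbtb genes, which encode zinc-finger proteins with a BTB domain, 7 had a broad region (17.1%, 7.15 to 32.1) and 17 any shared region. The 7, which were 41.2% of those 17, were Zbtb1, Zbtb2, Zbtb7a, Zbtb11, Zbtb14, Zbtb25 and Zbtb32. Zbtb1 and Zbtb25 lie at the same region. The regions of Zbtb11 and Zbtb32 also lie within 3 kb of an end of Rpl24 and of Kmt2b, respectively. Of 397 Zfp genes, a much larger zinc-finger group, 8 had a broad region (2.02%, 0.874 to 3.93) and 84 any shared region. The 8 were 9.52% of those 84, close to the share over all genes with a shared region. Of 1109 olfactory receptor genes, 0 had a shared region of any width, against 3483 of 21779 protein-coding genes, so none could have a broad one. A broad region with no gene end or listed start nearby lay at chr7:73617675-73618982, 76582 bp from the nearest protein-coding gene end, with 8.32-fold in replicate 1 and 15.5-fold in replicate 2.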
